A study of Mus musculus with 10 samples.

Results

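The 9 genes described here encode antioxidant enzymes: the peroxiredoxins Prdx1, Prdx2, Prdx3, Prdx5 and Prdx6, the superoxide dismutases Sod1 and Sod2, the catalase Cat and the glutathione peroxidase Gpx1. They were chosen by symbol, and all 9 were found among the 25178 genes of the deposited count table and passed the filter on low counts, which left 14674 genes. The libraries came from 5 female and 5 male mice of the inbred strain C57/BL6, kept at steady state. Marrow of 1 hindlimb per mouse was flushed and depleted of lineage-positive cells on magnetic beads, and total RNA of the remaining cells, labelled as hematopoietic stem and progenitor cells, was sequenced in bulk, with 5 mice in each sex. The study asked how hematopoiesis differs between the sexes, and the labels name no treatment, allele or age.

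Cells of the marrow make superoxide in their mitochondria and, in phagocytes, at the NADPH oxidase. Superoxide dismutases turn it into hydrogen peroxide, Sod1 in the cytosol with copper and zinc and Sod2 in the mitochondrial matrix with manganese. Peroxide is then removed by catalase in peroxisomes, by the selenoprotein Gpx1 with glutathione, and by the peroxiredoxins, which react through a cysteine and are mostly reset by thioredoxin. Prdx1 and Prdx2 are cytosolic and Prdx2 is abundant in red cells, Prdx3 is mitochondrial, Prdx5 is found in mitochondria, peroxisomes and the cytosol, and Prdx6 uses glutathione and also acts as a phospholipase. Stem cells of the marrow are known for a low level of such oxidants, and FOXO factors and the stress factor NRF2 are known regulators of several of these genes.

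NRF2 binds antioxidant response elements, whose core was searched as TGACNNNGC on both strands (GCNNNGTCA on the other) in the 250 bases before the RefSeq start of each gene (GRCm38.p6). RefSeq starts were at hand for 8 of the 9 genes, all but Prdx6. The core was present in 2 of these 8, Prdx1 and Sod1, and in 10.2% of 32851 such windows over all genes. The windows of Prdx1 and Sod1 are shown for their match, in capitals. That of Prdx5, which holds no match, is shown because Prdx5 and Prdx1 were high in the same 2 libraries. These were the 2 highest libraries for 5 of the 9 genes. A match is a string of letters and was not tested as a binding site.

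Prdx1, chr4:116685349-116685598, plus strand: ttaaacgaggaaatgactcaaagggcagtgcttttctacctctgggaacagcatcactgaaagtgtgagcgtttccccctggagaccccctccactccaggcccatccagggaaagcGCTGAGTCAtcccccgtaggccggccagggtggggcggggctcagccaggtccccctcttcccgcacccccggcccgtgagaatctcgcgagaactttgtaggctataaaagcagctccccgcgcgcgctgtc

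Sod1, chr16:90220512-90220761, plus strand: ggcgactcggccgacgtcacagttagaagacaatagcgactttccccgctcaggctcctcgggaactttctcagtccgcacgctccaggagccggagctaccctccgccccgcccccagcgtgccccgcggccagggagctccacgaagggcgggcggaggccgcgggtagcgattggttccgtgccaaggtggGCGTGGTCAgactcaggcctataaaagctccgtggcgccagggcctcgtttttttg

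Prdx5, chr19:6910107-6910356, minus strand: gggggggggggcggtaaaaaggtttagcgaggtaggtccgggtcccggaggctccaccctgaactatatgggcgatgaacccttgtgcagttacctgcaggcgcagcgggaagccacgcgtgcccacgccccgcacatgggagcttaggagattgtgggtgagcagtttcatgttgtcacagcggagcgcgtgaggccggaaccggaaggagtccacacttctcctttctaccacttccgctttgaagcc

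The match of Prdx1 began 133 bases before its start and that of Sod1 56 bases before it. The GC box GGGCGG was found on either strand in 6 of the 8 windows and in 32.7% of all windows, with 4 copies each for Sod1 and Sod2. The CCAAT box was found in 3 of the 8 (Sod1, Sod2 and Cat) and in 33.8% of all windows, and the window of Cat held 4 copies. The windows of Prdx2 and Gpx1 held none of the 3 motifs.

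Total counts ran from 20754101 to 24366241 in the female libraries and from 21136932 to 24759687 in the male libraries. Xist had between 805 and 1189 counts in females and at most 4 in males, and the Y-linked genes Ddx3y, Uty, Eif2s3y and Kdm5d had at most 2 counts in a female and at least 175 in a male, so the libraries matched their labels. All 12 stem and progenitor markers passed the filter, with summed levels of 836 to 1102 CPM (counts scaled to a common library total) in females and 595 to 992 CPM in males. The first principal component set male replicates 1 and 2 (scores of 35.3 and 36.6) apart from the other 8 libraries (at most 6.04). Male replicate 1 had the highest sum of the 13 mature neutrophil markers (9281 CPM, followed by 2601 CPM in male replicate 2, against 294 to 1125 CPM in females and 243 to 1543 CPM in the other 3 males). Male replicate 2 had the highest sum of 79 ribosomal protein genes (157755 CPM, the others 99901 to 114684), and in this library the longer a gene's exons, the lower its level relative to the mean (rank correlation across genes -0.506, between -0.297 and 0.369 in the others). The comparison of each of the 9 genes is given with and without these 2 libraries.

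Gpx1 was the most abundant of the 9 transcripts per unit of length and Sod2 the least. Scaled by union exon length, Gpx1 was at 2122 ± 92.6 TPM (counts per base of exon, scaled to a common total) in females and 2055 ± 125 TPM in males (n = 5 each, ± SD). The mitochondrial dismutase Sod2 was at 27.6 ± 1.02 TPM in female marrow and 25.5 ± 1.95 TPM in male marrow. Between them came Prdx2 (mean over the 10 libraries of 697 TPM), Prdx3 (368 TPM), Sod1 (325 TPM), Prdx6 (203 TPM), Prdx1 (164 TPM), Prdx5 (114 TPM) and Cat (98.0 TPM).

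The ranges over the 10 libraries overlapped between the neighbours Prdx3 and Sod1, Prdx6 and Prdx1, Prdx1 and Prdx5, and Prdx5 and Cat. Within libraries, Prdx3 was above Sod1 in 9 of 10, Prdx6 above Prdx1 in 9 of 10 and Prdx1 above Prdx5 in 9 of 10, while Prdx5 was above Cat in 4 of 10. The place of Sod1 depended on the length assigned to the gene. Its union exon length of 3970 bases counts the exons of all its annotated transcripts. With the median length of its coding transcripts (641 bases) Sod1 was at 1299.8 TPM and second to Gpx1. With this length, an alternative chosen after the values were seen, Prdx6 was at 375 TPM and above Prdx3 (237 TPM), while Gpx1 stayed first and Cat (97.3 TPM) and Sod2 (29.2 TPM) last.

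**Figure D1:**
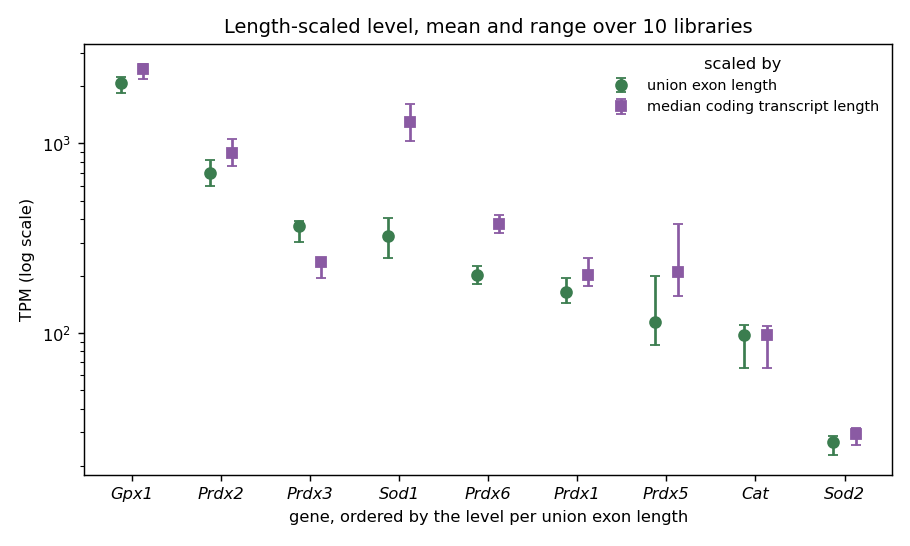
Length-scaled level of the 9 genes in TPM on a log axis, scaled by union exon length (circles) or by the median length of the coding transcripts (squares). Points are means over the 10 libraries and bars run from the lowest to the highest library. Gpx1 is highest and Sod2 lowest with both lengths, and Sod1 moves from 325 to 1299.8 TPM.

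The ratio of the cytosolic to the mitochondrial dismutase overlapped between the sexes. Per union exon length, Sod1 exceeded Sod2 by a factor of 12.0 ± 0.728 in female marrow and 12.5 ± 1.40 in male marrow (n = 5 each, ± SD). The factor was highest in male replicate 2, at 14.7, and between 11.4 and 13.2 in the females. With the median length of coding transcripts the factor was 43.5 ± 2.64 in female marrow and 45.5 ± 5.07 in male marrow. Prdx2 exceeded Prdx1 by 4.31 ± 0.737 in females and 4.30 ± 0.603 in males, and Gpx1 exceeded Cat by 20.6 ± 1.59 in females and 22.6 ± 3.34 in males, with 28.1 in male replicate 2. These ratios depend on the gene lengths used and were not tested. TPM serve here to order genes, and the sexes were compared in CPM, since TPM also depend on the lengths of all other genes counted in a library. Gpx1, Prdx3, Sod1, Prdx6, Cat and Sod2 had a lower mean in females in CPM and a higher mean in TPM with both lengths. Only Prdx1, Prdx2 and Prdx5 were lower in females in both units, so the direction depended on the scaling for most of the genes.

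No antioxidant enzyme was called different between the sexes, while the fitted level of all 9 was lower in females. High values in male replicates 1 and 2 made up most of this for the genes other than Cat and Prdx3. The quasi-likelihood test of edgeR called 0 of the 9 genes at an adjusted p under 0.05, where it called 8 genes, or 0.0545%, of all genes tested (0.0204% higher and 0.0341% lower in females). The unadjusted p was under 0.05 for 1 of the 9, Prdx5, which was lower in females, and for 9.17% of all genes tested (3.76% higher and 5.41% lower in females). DESeq2 also called 0 of the 9, against 0.239% of its genes, with 3 at an unadjusted p under 0.05 (Prdx5, Prdx1 and Prdx2, all lower in females), where 4.40% of genes were lower at that level. Its shares are of 25149 genes, without the filter on low counts used for edgeR, so they are not like for like. Limma on the deposited normalized values called 0 of the 9, against 0.0545% of all genes, with 0 at an unadjusted p under 0.05, against 8.72% of all genes. The fitted log2 fold change of female over male was below 0 for all 9 genes, as it was for 52.0% of all genes tested. Its median was -0.18 over the 9 and -0.01 over all genes tested. In 0 of the 9 did all 5 females lie below all 5 males in CPM, which 0.865% of genes did, and in 0 above, which 1.06% did. Without male replicates 1 and 2 the fitted value was below 0 for 7 of the 9, with a median of -0.05. Fewer cells of a type and less RNA per cell cannot be told apart in such bulk libraries.

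The 9 transcripts summed to 3709.7 ± 246 CPM in female marrow and 4336 ± 788 CPM in male marrow (n = 5 each, ± SD). The sum was 4522 CPM in male replicate 1 and 5621 CPM in male replicate 2, and in the other 3 males, at 3711 to 4060.1 CPM, it lay within the 3414 to 4099.5 CPM of the females. Of the 9 genes, 7 were highest in male replicate 2 and the other 2, Prdx5 and Cat, in male replicate 1. Male replicates 1 and 2 were the 2 highest libraries for 5 of the 9, Prdx1, Prdx3, Prdx5, Prdx6 and Gpx1.

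Prdx5 had the widest spread. It lies on the minus strand at chr19:6906697-6910106 (GRCm38, as all gene positions here). In females Prdx5 was at 87.0, 73.4, 88.0, 90.3 and 93.4 CPM in replicates 1 to 5, and in males at 213, 184, 103, 87.0 and 77.8 CPM. Male replicates 1 and 2 were higher than any other library by a wide margin, male replicate 3 was just above the highest female, and male replicates 4 and 5 lay within the range of the females. The means were 86.4 ± 7.66 CPM in female marrow and 133 ± 61.3 CPM in male marrow (n = 5 each, ± SD). The log2 fold change was -0.62 (SE 0.25, 95% interval -1.17 to -0.07, edgeR adjusted p = 0.506). It was -0.39 without male replicate 1, -0.47 without male replicate 2 and -0.05 without both (interval -0.26 to 0.16), with an adjusted p of 0.628, 0.682 and 1.0. The coefficient of variation of Prdx5 over the 10 libraries was 43.7%, a value exceeded by 1.21% of the 4216 genes with a mean of at least 50 CPM.

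Prdx1, the cytosolic enzyme at chr4:116685544-116700822 (plus strand), was high in the same 2 males. Its levels were 187, 184, 189, 222 and 183 CPM in the female libraries, and 298, 341, 226, 188 and 179.8 CPM in the male libraries. Replicates 4 and 5 of the males lay within or below the range of the females. The means were 193 ± 16.4 CPM in female marrow and 246 ± 70.7 CPM in male marrow (n = 5 each, ± SD). The log2 fold change was -0.35 (SE 0.17, 95% interval -0.72 to 0.01, edgeR adjusted p = 0.506), -0.20 once male replicate 2 was left out and -0.04 with replicate 1 left out as well. The window with the core GCTGAGTCA shown above belongs to this gene.

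Prdx2, Sod1 and Sod2 were each set apart by male replicate 2 alone. Prdx2, the red cell peroxiredoxin (chr8:84969587-84974834, plus strand), was at 1004, 877, 756, 798 and 705 CPM in the female libraries, and 986, 1489, 984, 860.4 and 885 CPM in the male libraries. Its log2 fold change was -0.33 (SE 0.16, 95% interval -0.67 to 0.01, edgeR adjusted p = 0.506), -0.16 once male replicate 2 was left out and -0.14 with replicate 1 left out as well. Female replicate 1 had the second highest value of the 10, above 4 of the 5 males.

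Sod1 (chr16:90220754-90226329, plus strand) was at 587, 523, 519, 514 and 490.4 CPM in the female libraries, and 496, 955, 551, 515 and 519.7 CPM in the male libraries. Apart from the 955 CPM of male replicate 2, all males lay within the range of the females. The log2 fold change of Sod1 was -0.21 (SE 0.17, 95% interval -0.57 to 0.16, edgeR adjusted p = 0.568), and its sign turned to 0.02 without male replicate 2. Without male replicates 1 and 2 it was -0.01. Sod2 (chr17:13006846-13040063, plus strand) was at 107 to 114 CPM in the 5 females, the narrowest of the 9 in that sex with a coefficient of variation of 2.52%. In males Sod2 was at 114, 164, 118, 101 and 107 CPM, and its log2 fold change was -0.12 (SE 0.12, interval -0.39 to 0.14, edgeR adjusted p = 0.619) and 0.02 without male replicate 2. With male replicate 1 left out as well it was 0.03.

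Gpx1 and Prdx6 differed less between libraries. Gpx1 (chr9:108338903-108340343, plus strand) was at 1375, 1189, 1255, 1163 and 1157 CPM in the female libraries, and 1547, 1585, 1285, 1261 and 1260 CPM in the male libraries. All females but replicate 1 lay below all males. Its means were 1228 ± 91.0 CPM in female marrow and 1388 ± 164 CPM in male marrow (n = 5 each, ± SD), and its log2 fold change was -0.18 (SE 0.10, 95% interval -0.39 to 0.04, edgeR adjusted p = 0.506) and -0.05 without male replicates 1 and 2. Prdx6 (chr1:161240112-161251219, minus strand) ran from 378 to 437 CPM in female marrow and from 361 to 535 CPM in male marrow. For Prdx6 the log2 fold change was -0.13 (SE 0.11, edgeR adjusted p = 0.590), and 0.04 without male replicates 1 and 2.

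The mitochondrial Prdx3 and the peroxisomal Cat were the steadiest over the 10 libraries, with coefficients of variation of 8.18% and 5.70%, against a median of 13.6% over the genes with at least 50 CPM. Cat (chr2:103453849-103485160, minus strand) was at 110.1, 106, 109.5, 116 and 99.1 CPM in the female libraries, and 120.5, 102, 110.2, 112 and 114 CPM in the male libraries. It was the 1 gene of the 9 that was not above its mean in male replicate 2, where it lay 0.10 below on the log2 scale. For Cat the log2 fold change was -0.05 (SE 0.08, edgeR adjusted p = 0.755), with a 95% interval of -0.22 to 0.12. It was also -0.05 without male replicates 1 and 2. Prdx3 (chr19:60864051-60874556, minus strand) was at 224 ± 17.2 CPM in female marrow and 246 ± 15.5 CPM in male marrow (n = 5 each, ± SD). The log2 fold change of Prdx3 was -0.13 (SE 0.08, interval -0.31 to 0.04, edgeR adjusted p = 0.510), and -0.08 without male replicates 1 and 2.

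**Figure D2:**
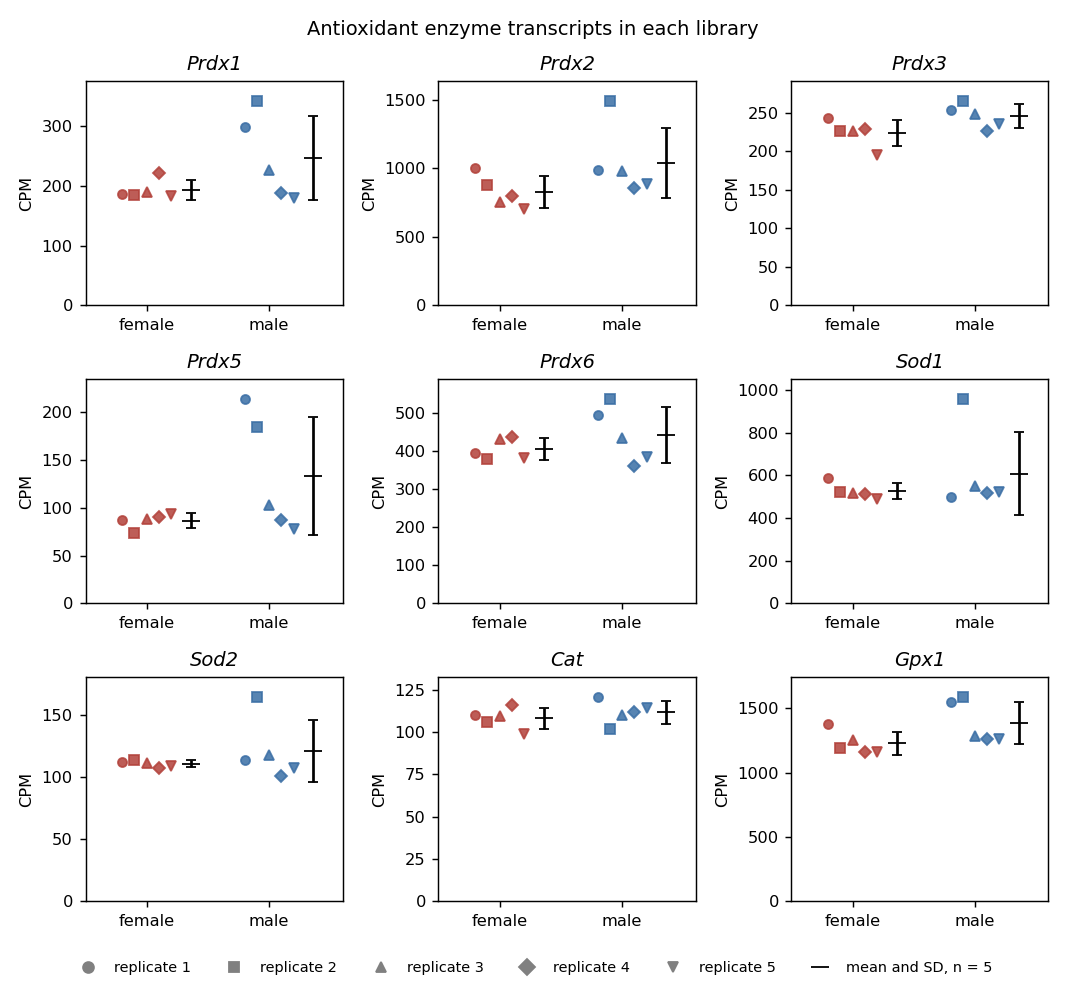
Level of the 9 antioxidant enzymes in CPM in each library, with females left and males right. Marker shapes give the replicate number, and black bars the mean and SD of 5 mice. Male replicates 1 and 2 are the 2 highest for 5 of the 9 genes, Prdx1, Prdx3, Prdx5, Prdx6 and Gpx1. Male replicate 2 alone is apart for Prdx2 and Sod1, and the values of Cat and Prdx3 stay close together.

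**Figure D3:**
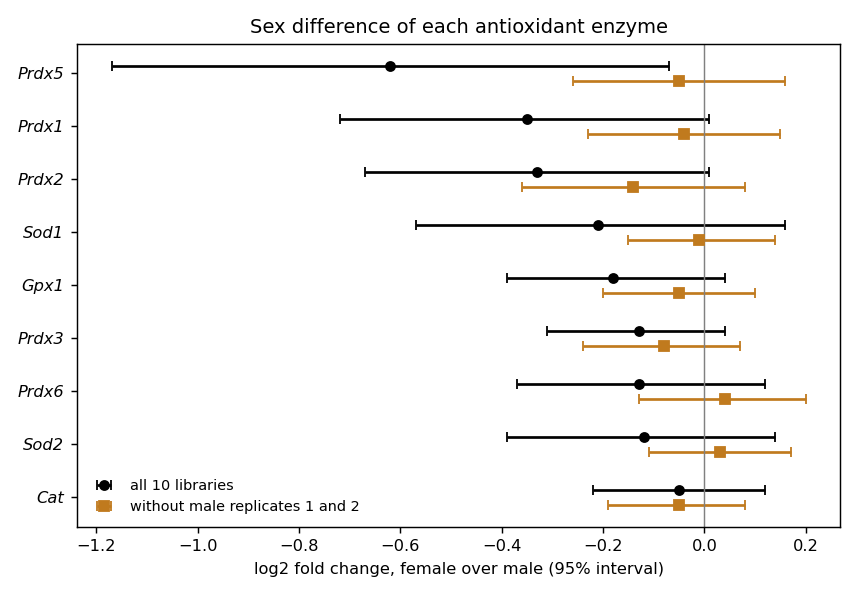
Log2 fold change of female over male for each gene with its 95% interval from edgeR, over all 10 libraries (circles) and without male replicates 1 and 2 (squares). All circles lie below 0, from -0.62 for Prdx5 to -0.05 for Cat, and the squares lie between -0.14 and 0.04.

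Set beside marker genes, the 9 genes followed different patterns over the libraries. On the log2 scale Prdx5 lay 1.05 above its mean in male replicate 1 and 0.84 above it in male replicate 2. The mean of the 13 mature neutrophil markers lay 3.18 and 1.25 above its own mean in these libraries, and that of 14 erythroid markers 0.94 and 0.44 above. Of the 13 neutrophil markers 13 had a fitted log2 value below 0, with a median of -2.41 and 12 at an unadjusted p under 0.05. Their part in the values of Prdx5 and Prdx1 was not tested. In male replicate 5, where neutrophil markers were lowest (1.58 below their mean), Prdx5 lay 0.40 and Prdx1 0.25 below the mean. In female replicate 3 and male replicate 4 the markers lay 0.31 and 0.68 above their mean, while Prdx5 lay 0.22 and 0.24 below and Prdx1 0.18 and 0.19 below.

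The erythroid markers summed to 9262 to 14218 CPM in females and 16115 to 50906 CPM in males and were highest in male replicate 1, and 11 of 14 had a fitted value below 0, with 9 at an unadjusted p under 0.05. Prdx2, the red cell member, was at 986 CPM in that library, below female replicate 1 (1004 CPM) and above the other females (705 to 877 CPM). Male replicate 2, where Prdx2 was highest (1489 CPM), had the second highest erythroid sum, 29997 CPM. Male replicate 4 followed with 28644 CPM, and Prdx2 was at 860.4 CPM there. The part of the erythroid markers in the values of Prdx2 was not tested. Sod1 and Sod2 lay 0.78 and 0.51 above their means in male replicate 2, where ribosomal protein genes lay 0.75 above theirs. The part of these genes in the result was not tested. After removal of each library's trend with union exon length, Sod1, Sod2 and Prdx2 lay 0.85, 0.93 and 0.64 above their means in male replicate 2. Gpx1 and Prdx3 lay 0.12 and 0.22 below their means there. These values depend on the length assigned to each gene. The union exon length is 3970 bases for Sod1 and 10008 for Sod2, and the median length of their coding transcripts 641 and 5861 bases. Removal of a trend with the median length was not run, so what it would leave of these values is not known.

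Megakaryocyte and platelet markers ran the other way, with sums of 1749 to 2331 CPM in females and 1262 to 1579 CPM in males that did not overlap. Of the 9 that passed the filter 0 had a fitted value below 0, the median was 0.45, and 6 had an unadjusted p under 0.05, with 0 called by edgeR. The 7 mitochondrially encoded genes lay 0.45 above their mean in male replicate 1 and 0.73 in male replicate 2. These were the 2 highest libraries for 5 of the 9 genes, Prdx1 and Prdx5 among them. The mitochondrially encoded genes summed to 599 to 1029 CPM in females and 549 to 1075 CPM in males. The part of these lists in the values of the 9 genes was not tested.

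**Figure D4:**
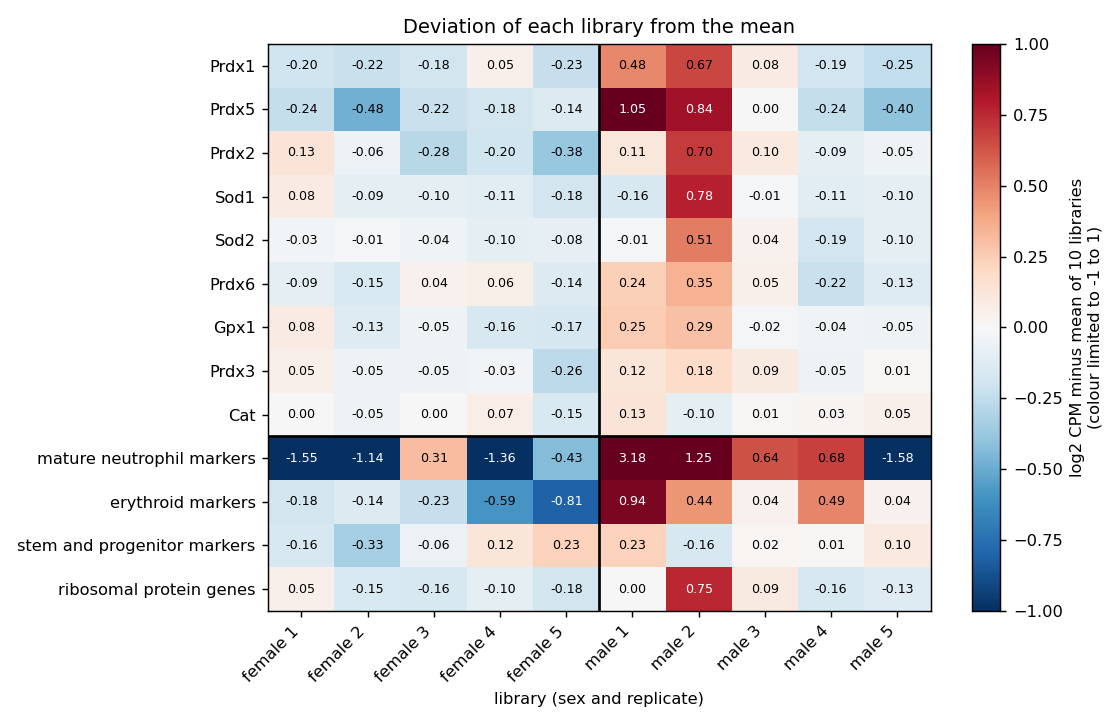
Log2 CPM of each of the 9 genes (upper rows) and mean log2 CPM of 4 gene lists (lower rows) in each library, less the mean of the 10 libraries. Colours run from -1 (blue) to 1 (red). Male replicates 1 and 2 hold the 2 highest values of Prdx1, Prdx3, Prdx5, Prdx6 and Gpx1. Male replicate 2 holds the highest value of Prdx2, Sod1, Sod2 and the ribosomal protein genes.

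For each of the 9, the gene with the most similar profile was sought among 8461 other named genes with a mean of at least 10 CPM, by Pearson's r of log2 CPM over the 10 libraries. These values are descriptions over shared libraries. Each r over the 10 libraries is the highest of all genes searched, so a high value follows from the search. Values over fewer of the same libraries are not a separate check of the likeness. For Prdx2 it was Pcna, the sliding clamp of DNA replication (r = 0.997, Spearman's rho = 0.976, and r = 0.991 over the 8 libraries without male replicates 1 and 2). For Prdx5 it was Msrb1, a methionine sulfoxide reductase (r = 0.996, 0.954 over the 8), and for Prdx1 the nuclear matrix gene Matr3 (0.993 and 0.946). For Sod1 it was Mrpl28, a mitochondrial ribosomal protein gene (0.988 and 0.854), for Sod2 the tubulin cofactor Tbcb (0.990 and 0.896), and for Prdx6 Hnrnpc (0.978 and 0.928). For Gpx1 it was Map1lc3b (0.963 and 0.867), for Prdx3 Oip5 (0.954 and 0.960) and for Cat Tk2 (0.911 and 0.843). Spearman's rho was highest for the pair of Prdx2. It was 0.939 for Sod1 and for Gpx1, 0.915 for Sod2, 0.903 for Prdx5 and 0.879 for Prdx3. For Prdx1 it was 0.867, for Cat 0.83 and for Prdx6 0.758.

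Reads of genes that overlap on opposite strands cannot be told apart without strand, and whether reads were counted by strand is not stated in the labels. Prdx5 overlaps Trmt112 on the other strand, Prdx2 overlaps Rnaseh2a and Junb, and Sod1 overlaps Scaf4. Rnaseh2a was at 144 CPM in male replicate 2, where Prdx2 was also highest, and at 86.0 to 103 CPM in females. Trmt112 was at 154 CPM in male replicate 1 and 253 CPM in male replicate 2, and at 137 to 152 CPM in females. Scaf4 was at 51.5 CPM in male replicate 1 and 53.6 CPM in male replicate 2, against 68.7 to 82.9 CPM in females, and of these 2 males only replicate 2 was high in Sod1. The levels of Prdx5, Prdx2 and Sod1 are uncertain to that extent. Prdx6b, a copy of Prdx6, had 3 counts in all against 96386 for Prdx6.

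Of 73 other genes of the oxidant pathways, grouped in 7 lists, 66 were tested and 0 were called by edgeR or DESeq2. At an unadjusted p under 0.05 in edgeR, 0 were higher and 9 lower in females, beside 3.76% and 5.41% of all genes tested. Without male replicates 1 and 2 there were 1 higher and 3 lower, beside 3.65% and 1.94% of all genes tested in that fit. The lists were drawn up with earlier results of these data known. Of the 66, 48 had a log2 value below 0, with a median of -0.11, and 47 without male replicates 1 and 2, with a median of -0.03. Among 6 other peroxidases and partners of the dismutases the median was -0.07 (0.01 without these 2 libraries), with 1 at an unadjusted p under 0.05. This was Prdx4, the X-linked peroxiredoxin of the endoplasmic reticulum, at 53.7 ± 7.15 CPM in female marrow and 67.4 ± 14.3 CPM in male marrow (log2 -0.33, edgeR adjusted p = 0.506). Gpx4, which reduces lipid peroxides, was at 356 ± 21.3 CPM in female marrow and 414 ± 111 CPM in male marrow, with 609.8 CPM in male replicate 2. Without male replicates 1 and 2 the log2 value was -0.14 for Prdx4 and -0.03 for Gpx4, against -0.22 for Gpx4 over all libraries.

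The 12 thioredoxin genes had a median log2 value of -0.05, and -0.03 without male replicates 1 and 2. Thioredoxin itself, Txn1, which resets the peroxiredoxins, was at 269.8 ± 12.7 CPM in female marrow and 355 ± 116 CPM in male marrow (log2 -0.40, edgeR adjusted p = 0.506), with its highest values of 389 and 540.3 CPM in male replicates 1 and 2, and its log2 value was -0.07 without these. Its inhibitor Txnip was at 86.3 ± 7.38 CPM in female marrow and 104 ± 21.2 CPM in male marrow. Of 15 glutathione genes 14 had a value below 0 (median -0.21), and 13 without male replicates 1 and 2 (median -0.04). The glutaredoxin Glrx was at 49.1 ± 4.05 CPM in female marrow and 74.5 ± 27.4 CPM in male marrow (log2 -0.60, adjusted p = 0.506), and -0.21 on the log2 scale without male replicates 1 and 2. The microsomal transferase Mgst1 was at 6.71 ± 1.96 CPM in female marrow and 15.2 ± 12.1 CPM in male marrow. Male replicate 1 was highest for both, with 118 CPM for Glrx and 35.5 CPM for Mgst1. The log2 value of Mgst1 was -1.17, and -0.24 without male replicates 1 and 2. The mitochondrial glutaredoxin Glrx5 was at 375 ± 31.9 CPM in female marrow and 434 ± 98.4 CPM in male marrow.

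All 7 tested genes of NADPH supply, which feeds both thioredoxin and glutathione, had a value below 0 (median -0.13), with 0 at an unadjusted p under 0.05. Without male replicates 1 and 2 it was 6 of 7 (median -0.03). Transaldolase, Taldo1, was at 474 ± 11.6 CPM in female marrow and 560.1 ± 112 CPM in male marrow, with 739 CPM in male replicate 2 (log2 -0.24, and -0.05 without male replicates 1 and 2). G6pdx, the entry enzyme of the pentose phosphate pathway, was at 141 ± 5.45 CPM in female marrow and 159.5 ± 23.9 CPM in male marrow. Transketolase, Tkt, was at 1052 ± 38.8 CPM in female marrow and 1093 ± 44.3 CPM in male marrow. The transhydrogenase Nnt, which is mutated in the C57BL/6J substrain, had 2 to 10 counts in a female library and 5 to 15 in a male library and was not tested.

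The 10 NRF2 genes had a median log2 value of 0.06, with 4 below 0, and 5 below 0 without male replicates 1 and 2. Nfe2l1, a relative of NRF2, was at 91.7 ± 4.74 CPM in female marrow and 76.3 ± 16.9 CPM in male marrow, with 49.4 CPM in male replicate 2. Keap1, which marks NRF2 for degradation, was at 104 ± 5.75 CPM in female marrow and 94.5 ± 16.4 CPM in male marrow. The adaptor Sqstm1 was at 147 ± 1.85 CPM in female marrow and 155 ± 5.31 CPM in male marrow. For Nfe2l1 the log2 value was 0.27, and 0.08 without male replicates 1 and 2. The 6 FOXO and sirtuin genes had a median of 0.10, which turned to -0.02 without these 2 libraries. Foxo3 was at 158 ± 9.63 CPM in female marrow and 144 ± 38.0 CPM in male marrow, with 87.9 CPM in male replicate 2, and Foxo4 at 37.7 ± 1.61 CPM in female marrow and 32.3 ± 5.47 CPM in male marrow. The mitochondrial deacetylase Sirt3 was at 17.6 ± 0.590 CPM in female marrow and 19.9 ± 1.35 CPM in male marrow, with all females below all males, as in 0.865% of genes tested (log2 -0.17, edgeR adjusted p = 0.506).

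Of the 10 tested genes of oxidant sources 10 had a log2 value below 0 (median -0.54), and 5 had an unadjusted p under 0.05, among them Cybb and Rac2. Without male replicates 1 and 2, 9 of the 10 were below 0 (median -0.11) and 1, Rac2, had an unadjusted p under 0.05. Cybb, the catalytic subunit of the phagocyte NADPH oxidase, was at 23.4 ± 7.81 CPM in female marrow and 64.8 ± 69.3 CPM in male marrow, with 187 CPM in male replicate 1 (log2 -1.47, SE 0.55, edgeR adjusted p = 0.506). Rac2, which activates the oxidase, was at 186 ± 16.8 CPM in female marrow and 248 ± 60.6 CPM in male marrow (log2 -0.41, edgeR adjusted p = 0.506). For Rac2 all females lay below all males, as in 0.865% of genes tested. Without male replicates 1 and 2 the log2 value was -0.48 for Cybb and -0.23 for Rac2. Mpo, the peroxidase of primary granules, was at 2222 ± 396 CPM in female marrow and 2432 ± 231 CPM in male marrow. Mature neutrophils express this oxidase, and the part of the neutrophil markers given above in these values was not tested.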

How the data were processed

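RNA-seq libraries of lineage-depleted bone marrow from 5 female and 5 male mice were compared, grouped by the sex in the sample titles. Per the submitters' processing notes, which give no versions, the tools were STAR, featureCounts and DESeq, and the builds GRCm38.p6 and mm10. The authors deposited raw read counts per gene, and a table of normalized values (signal), which equalled the counts divided by 1 size factor per library. Positions and union exon lengths come from GENCODE vM21 (GRCm38), which held 25116 of the 25178 genes, and promoter windows from RefSeq (GRCm38.p6).

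Counts were filtered with filterByExpr by sex, scaled by TMM and fitted with sex as the only term over all 14674 genes with edgeR 4.0.16 in R 4.3.3 (quasi-likelihood test, robust fit). Calls required a Benjamini-Hochberg adjusted p under 0.05 over all these genes. The SE is the size of the log2 fold change over the square root of F, and 95% intervals use the t quantile of the fit. Deviations use log2 CPM with a prior count of 2. Levels in CPM use the TMM-scaled total over the genes tested, sums of marker lists use the total of the library, and TPM were computed here from counts per exon length.

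The members and gene lists were chosen with earlier results of these data known. The genes named are the 9 members, the 2 genes of smallest p and the 1 of highest level in each of the 7 pathway lists, the gene most alike to each member, and the sex-linked check genes. Nnt and the genes overlapping or copying a member were named after their values were seen. The B cell, macrophage, T and NK cell and endothelial marker lists summed to at most 131 CPM in any library, and stromal markers to 326 to 2433 CPM in female and 323 to 2785 CPM in male libraries. Relative to their means on the log2 scale, B cell markers were at 1.72 and 0.83 in male replicates 1 and 2, and macrophage markers at 1.81 and 0.12. T and NK cell markers were at 0.89 and 0.15 there, and endothelial markers at -0.25 and -0.44. The part of these lists in the values of the 9 genes was not tested.

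Alternatives were DESeq2 1.42.0, other scalings and filters, an offset for exon length (lowess, span 0.3), limma 3.58.1 with a pseudocount of 1 on the normalized values, leaving out libraries, and a replicate block. On simulated counts for 14491 genes, the calls held 89 of 100 genes with a log2 change of 1 and 99 of 100 with a log2 change of 2, beside 9 unchanged genes. No smaller change was simulated, while the fitted values of the 9 antioxidant genes ran from -0.62 to -0.05. Genes were drawn independently, without a shift shared by male replicates 1 and 2. The simulation therefore does not tell how often changes of the size fitted here would be called. P-values measure the spread between mice. The lowest count of a member in a library was 1657, and counting error alone is at most 2.46% of a value.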

Additional observations from a re-analysis of the deposited data

Results flagged for a closer look

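In 18 groups of 5 libraries (the 9 genes in each sex), 4 values lay far from the other 4 of their sex. Chance gives this in about 1 in 20 independent groups. These groups share libraries and are not independent, so the number flagged cannot be set against that share. The rule seeks a single value apart, and Prdx5, high in male replicates 1 and 2, was not flagged. Prdx1 was at 222 CPM in female replicate 4, and at 183 to 189 CPM in the other females. Prdx2 was at 1489 CPM in male replicate 2, and at 860.4 to 986 CPM in the other males. Sod1 was at 955 CPM in the same library, and at 496 to 551 CPM in the other males. Sod2 was at 164 CPM there, and at 101 to 118 CPM in the other males.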

How the results depend on the processing

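Under the 20 alternatives the count of antioxidant enzymes called stayed at 0, as did that of the other pathway genes. The lowest adjusted p of any of the 9 genes was 0.323. The log2 fold change ran from -0.28 to 0.02 for Sod1 and from -0.18 to 0.02 for Sod2 when 1 library was left out. All genes called numbered 8, against 60 with DESeq2, 5 with the replicate block and 5 with the block and the length offset, and 6 to 10 when 1 library was left out. DESeq2 was run on 25149 genes, without the filter on low counts. Of the 9 genes, 1 had an unadjusted p under 0.05, beside 9.17% of all genes. There were 3 with DESeq2 (7.32% of all genes), 3 without a filter on low counts (8.0%), 2 with upper quartile factors (9.75%), 0 with limma (8.72%), 0 without male replicates 1 and 2 (5.6%), and 0 to 3 when 1 library was left out (5.33% to 15.3%). The log2 fold change changed sign for Sod1 (0.02) and Sod2 (0.02) without male replicate 2, for Sod2 (0.03) and Prdx6 (0.04) without male replicates 1 and 2, and for Cat with the length offset (0.02, and 0.02 with the replicate block added). That of Prdx1, Prdx2, Prdx3, Prdx5 and Gpx1 kept its sign under all 20, in some of them only near 0. With the length offset it was -0.01 for Prdx3 and -0.04 for Gpx1. Without male replicates 1 and 2 it was -0.04 for Prdx1, -0.05 for Prdx5 and -0.05 for Gpx1. The fold change of Sod2 with the length offset was -0.32, with an exon length of 10008 bases that counts the exons of all its annotated transcripts. Apart from the fits with libraries left out, the cause of these changes was not tested. No pairing of mice by replicate number was seen. Deviations of libraries with the same number correlated between -0.348 and -0.0356, and 0 of 5 females were most like the male of their number. With so few libraries these values cannot exclude a batch shared by number.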
